A study of Homo sapiens with 6 samples.

Results

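The 8 genes described here, THY1, CD44, PROM1, CD24, EPCAM, ANPEP, ICAM1 and SOX9, are widely used as markers of stem-like cells in liver cancer. They were taken by name from the table of expressed genes, and all 8 of them were found among its 35856 genes. The labels give HCCLM3, an established human hepatocellular carcinoma line, as the source of every library and call the cells hepatoma cells. In the LINC00862 group (3 libraries) the cells had been transfected with a vector carrying the long noncoding RNA LINC00862, and in the control group, Empty (3 libraries, labelled NC), with the vector alone. For overexpression the study loaded LINC00862 onto pcDNA3.1, and whether the sequenced cells were transiently or stably transfected, or how many clones they came from, is not given in the sources used here. Nothing in the labels says that the 3 libraries of a group came from separate cultures, so the p-values measure the spread between these libraries, which may be technical. The comparison asked which transcripts differ once LINC00862 is overexpressed.

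Cancer stem cell markers are proteins, mostly on the cell surface, by which a fraction of tumour cells able to found new tumours has been sorted. The set does not mark 1 cell type. In liver tumours, EPCAM and PROM1 (CD133) are known from hepatic progenitors and epithelial cells, THY1 (CD90) and CD44 are known also from mesenchymal cells, and CD24, ANPEP (CD13) and ICAM1 (CD54) from several lineages. SOX9 is not a surface protein but a transcription factor of biliary and progenitor cells. By the Gene Ontology terms listed beside each gene in the deposited table, 7 of the 8 markers carried plasma membrane (all but SOX9), against 16.5% of the tested genes, and 6 carried cell surface, against 2.29%. The term cell-cell adhesion was shared by 5 of them, CD24, CD44, ICAM1, SOX9 and THY1, against 0.670% of the tested genes.

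Total counts lay between 58241123 and 68229070 per library. After removal of genes with low counts, 20741 genes were tested by edgeR's quasi-likelihood method, and those with a Benjamini-Hochberg adjusted p below 0.05 were called differentially expressed. The overexpressed LINC00862 was higher in each library labelled LINC00862, with counts of 145, 121 and 76, than in the Empty libraries, with counts of 11, 21 and 6 (log2 fold change 3.22, SE 0.53, adjusted p = 0.000583). This RNA passed the filter on low counts through its own group alone, so its call was bound to be an increase. The groups differed widely. Of the tested genes, 64.2% were differentially expressed, 34.4% up-regulated and 29.8% down-regulated, and the FPKM of 71.1% did not overlap between the groups. FPKM scales the fragments of a gene to its transcript length and to the depth of the library, so that levels can be set between genes. The mean FPKM of LINC00862 was 0.0507 in Empty and 0.449 in its own group, at the percentiles 14.2 and 30.1 of the tested genes. The hepatoma label was checked against 10 hepatocyte markers, and their summed FPKM was 4.73 to 5.17 in Empty and 809 to 924 in LINC00862. FGB and CPS1, whose values are given further below, made up most of the LINC00862 sums. Of the 9 markers tested, 7 were up-regulated and 2 down-regulated. This count is partly set by the filter, since 5 of the 9 passed it through 1 group alone, which fixed their direction. Of the 4 that passed in both groups, 3 were up-regulated and 1 was down-regulated. ALB (albumin), named here after its values were seen, had counts of 0, 0 and 7 in the Empty libraries and of 423, 394 and 282 in the LINC00862 libraries. A defining hepatocyte gene was thus at or near 0 in the control libraries. Whether the libraries of both groups hold the cell line that the labels name was not tested, and each fold change below is a difference between the libraries so labelled. The part of this broad difference in the marker values was not tested. In bulk RNA, fewer cells that express a gene and less RNA per cell cannot be told apart.

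Promoter windows of 300 bases, from 250 before to 50 after a start site, were taken from RefSeq (GRCh38.p14) and matched to 5 of the 8 markers by symbol. THY1, EPCAM and SOX9 were not matched. The windows of a marker that rose (PROM1), one that fell strongly (CD44) and one that fell less (ICAM1) are shown to set their starts side by side. Capitals mark the motifs searched on both strands, which were the E-box of ZEB and SNAI repressors (CACCTG or CAGGTG), a kappaB site (GGAAATTCC or GGAATTTCC), the TATA box (TATAAA or TTTATA) and the GC box (GGGCGG or CCGCCC).
CD44, chr11:35138921-35139220, plus strand: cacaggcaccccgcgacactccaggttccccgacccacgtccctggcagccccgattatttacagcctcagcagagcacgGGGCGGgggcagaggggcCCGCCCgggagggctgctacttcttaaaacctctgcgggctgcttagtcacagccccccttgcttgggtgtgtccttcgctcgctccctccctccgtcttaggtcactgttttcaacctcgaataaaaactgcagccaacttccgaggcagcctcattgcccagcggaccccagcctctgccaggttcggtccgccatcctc
PROM1, first of 4 start sites, chr4:16083974-16084273, minus strand: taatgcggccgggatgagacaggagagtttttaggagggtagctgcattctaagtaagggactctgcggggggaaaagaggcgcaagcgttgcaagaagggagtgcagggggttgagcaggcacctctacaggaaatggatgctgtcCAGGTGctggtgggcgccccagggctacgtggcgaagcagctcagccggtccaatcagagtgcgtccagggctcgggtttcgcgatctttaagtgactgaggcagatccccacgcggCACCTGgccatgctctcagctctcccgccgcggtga
ICAM1, chr19:10270870-10271169, plus strand: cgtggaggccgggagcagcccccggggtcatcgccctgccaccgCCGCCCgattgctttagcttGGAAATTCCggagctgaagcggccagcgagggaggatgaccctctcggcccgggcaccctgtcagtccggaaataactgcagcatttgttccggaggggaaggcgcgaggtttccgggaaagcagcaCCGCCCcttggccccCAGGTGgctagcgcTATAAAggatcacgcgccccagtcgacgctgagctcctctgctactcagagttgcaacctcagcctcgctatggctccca
The CD44 window held 2 GC boxes, whose first bases lay at -170 and -152 from the start site, and none of the other motifs. The PROM1 window held 2 E-boxes, at -103 and 14, and no GC box. The other PROM1 start sites differed from it, with 2 GC boxes and no E-box at the second, a GC box and an E-box at the third, and 2 E-boxes and no GC box at the fourth. The ICAM1 window held a kappaB site at -186, an E-box at -44, a TATA box at -30 and GC boxes at -206 and -59. Of 35116 promoter windows of the same length in the RefSeq table, 20.6% held the E-box, 0.461% the kappaB site, 11.5% the TATA box and 45.0% the GC box. Among the markers not printed, the first of 2 ANPEP windows held 4 GC boxes, of which the last 2 overlap, and none of the other motifs. A match says only that these letters occur, not that a factor binds there. The PROM1 start is the 5′ end of the gene in the deposited table, the ICAM1 start lies 27 bases and the CD44 start 289 bases downstream of it.

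Of the 8 markers, 2 were up-regulated (EPCAM and PROM1), 5 were down-regulated (THY1, SOX9, ANPEP, CD44 and ICAM1) and CD24 was not differentially expressed. A share of 7 in 8 stands beside 64.2% of all tested genes, so that being called is not particular to the markers. The FPKM of all 8 did not overlap between the groups, beside 71.1% of the tested genes. The median log2 fold change of the 8 was -2.00, against 0.11 over all tested genes, and 6 changed at least 2-fold with an adjusted p below 0.05, beside 49.8% of the tested genes. All 8 were tested. In 7 of them the count cutoff was reached by all libraries of both groups, while PROM1 reached it in all 3 libraries in LINC00862 but not in Empty, so its call was bound to be an increase.

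**Figure D1:**
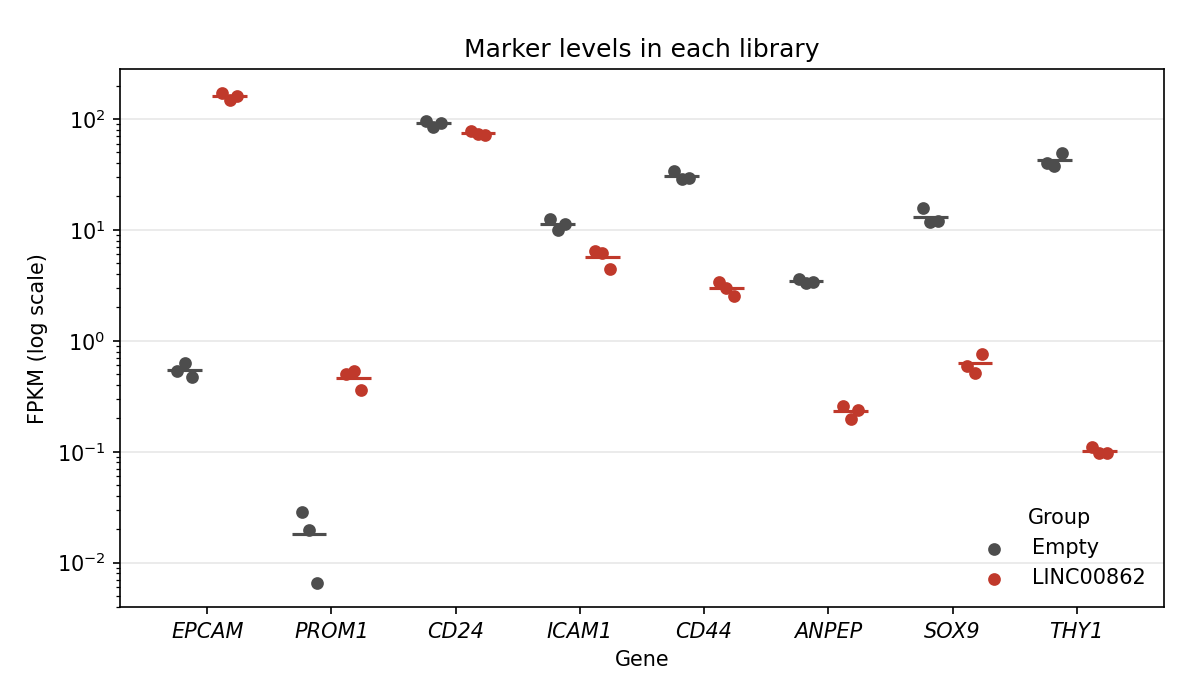
FPKM (log axis) of each marker in each library, with grey points for Empty, red points for LINC00862 and a line at the group mean (n = 3). EPCAM and PROM1 lay higher in every LINC00862 library, and the other 6 lay lower, from CD24, at 71.8 to 77.2 against 84.9 to 95.6, to THY1, at 0.0964 to 0.110 against 37.7 to 49.1.

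EPCAM (ENSG00000119888, chr2:47345158-47387601, plus strand, hg38) encodes the epithelial cell adhesion molecule, a homophilic adhesion protein of simple epithelia and of fetal liver progenitors. The 3 Empty libraries held 86, 101 and 80 reads of it, those of LINC00862 31485, 23775 and 26320. The FPKM rose from 0.547 ± 0.0819 to 160 ± 10.8 (SD, n = 3 each). EPCAM thus stood below the middle of the tested genes in Empty, at the percentile 37.7 of FPKM, and at 99.1 in LINC00862. This was a log2 fold change of 8.34 (SE 0.22, 95% interval 7.85 to 8.84, 325-fold, adjusted p = 2.63e-08). Only 2.92% of the tested genes were higher in LINC00862 by as much or more.

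PROM1 (ENSG00000007062, chr4:15963076-16084023, minus strand) encodes prominin-1, a cholesterol-binding protein of membrane protrusions. It drew 14, 10 and 4 reads in Empty, against 286, 265 and 180 in LINC00862. Each LINC00862 library stood above each Empty library, but the level stayed low in both groups, with an FPKM of 0.0182 ± 0.0109 and 0.463 ± 0.0924 (SD, n = 3 each). On the log2 scale the rise was 4.78 (SE 0.45, 95% interval 3.76 to 5.81, 27.5-fold, adjusted p = 2.02e-05). PROM1 and EPCAM both rose, yet the FPKM of EPCAM in LINC00862 was far above that of PROM1. The log2 fold change of PROM1 on the scale of log2(FPKM + 1) was 0.52 by limma-trend, since a pseudocount of 1 is above its FPKM in every library.

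THY1 (ENSG00000154096, chr11:119415476-119424985, minus strand) encodes a lipid-anchored glycoprotein of neurons, thymocytes and fibroblasts. The 3 Empty libraries held 18162, 16986 and 22607 reads of it, those of LINC00862 59, 45 and 46. The FPKM fell from 42.2 ± 6.07 to 0.101 ± 0.00758 (SD, n = 3 each). A gene above 95.5% of the tested genes in Empty was therefore above only 11.2% of them in LINC00862. The log2 fold change was -8.50 (SE 0.23, 95% interval -9.02 to -7.98, 362-fold lower, adjusted p = 2.89e-08). Only 0.415% of the tested genes were lower in LINC00862 by as much or more. The ratio of EPCAM to THY1 in FPKM lay between 0.00968 and 0.0169 in the Empty libraries and between 1537 and 1670 in the LINC00862 libraries.

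CD44 (ENSG00000026508, chr11:35138882-35232402, plus strand) encodes the main cell surface receptor for hyaluronan. It drew 22223, 18720 and 19752 reads in Empty, against 2590, 1991 and 1693 in LINC00862. The gene was still well detected in LINC00862, with an FPKM of 2.97 ± 0.436 against 30.6 ± 2.60 in Empty (SD, n = 3 each). CD44 had a log2 fold change of -3.19 (SE 0.15, 95% interval -3.53 to -2.85, 9.12-fold lower, adjusted p = 3.07e-07). The table lists 28 transcripts for CD44, and its splice variants, which differ in stem-like cells, are summed in this value.

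ANPEP (ENSG00000166825, chr15:89784895-89815401, minus strand) encodes aminopeptidase N, an ectoenzyme that trims peptides at the cell surface. The 3 Empty libraries held 1162, 1062 and 1105 reads of it, those of LINC00862 98, 65 and 80. The Empty libraries lay close together and far above the LINC00862 libraries, with an FPKM of 3.44 ± 0.138 against 0.232 ± 0.0304 (SD, n = 3 each). ANPEP thus had a log2 fold change of -3.68 (SE 0.22, 95% interval -4.18 to -3.18, 12.8-fold lower, adjusted p = 1.3e-06).

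ICAM1 (ENSG00000090339, chr19:10271093-10285583, plus strand) encodes a ligand of leukocyte integrins and is a known target of NF-kappaB. It drew 2888, 2244 and 2625 reads in Empty, against 1692, 1421 and 1035 in LINC00862. The groups did not overlap, but the step between them was small, from an FPKM of 11.3 ± 1.34 to 5.71 ± 1.07 (SD, n = 3 each). On the log2 scale this was -0.82 (SE 0.16, 95% interval -1.18 to -0.46, 1.76-fold lower, adjusted p = 0.00149). Against a null of a 2-fold change the adjusted p was 0.944, and among the other alternatives, all of which called it, it ranged between -0.99 and -0.61.

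CD24 (ENSG00000272398, chr6:106969831-106975465, minus strand) encodes a small mucin-like glycoprotein that binds Siglec-10. The 3 Empty libraries held 19594, 17155 and 19155 reads of it, those of LINC00862 18258, 15072 and 14894. Its FPKM was high in both groups, 91.1 ± 5.55 and 74.2 ± 2.73 (SD, n = 3 each), and did not overlap between them. The log2 fold change was -0.12 (SE 0.13, adjusted p = 0.451), with a 95% interval from -0.42 to 0.18, that is from 1.34-fold lower to 1.13-fold higher. With upper quartile scaling the sign turned and the value was 0.093. CD24 has near-identical retrocopies in the genome between which the authors' counting could split reads, so its level is uncertain.

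SOX9 (ENSG00000125398, chr17:72121020-72126416, plus strand), the transcription factor of the set, drew 4102, 3021 and 3145 reads in Empty, against 180, 133 and 202 in LINC00862. The level fell in FPKM from 13.2 ± 2.24 to 0.625 ± 0.130 (SD, n = 3 each). The direction was opposite to that of EPCAM, with which it is often listed as a progenitor marker. SOX9 had a log2 fold change of -4.20 (SE 0.23, 95% interval -4.72 to -3.68, 18.4-fold lower, adjusted p = 6.91e-07). For each of the 8 markers permuting the FPKM over the 6 libraries gave an exact two-sided p of 0.1, which is the smallest possible with 3 against 3.

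**Figure D2:**
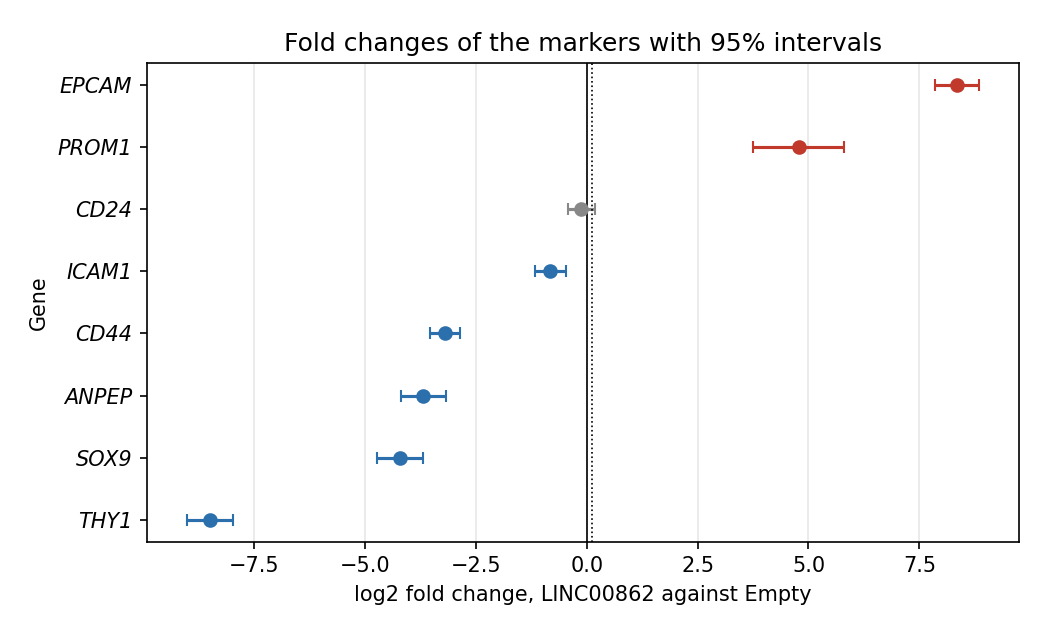
log2 fold change of each marker, LINC00862 against Empty, with its 95% interval (edgeR, n = 3 each), in red for up-regulated, blue for down-regulated and grey for not called, with a dotted line at the median of all tested genes (0.11). EPCAM at 8.34 and THY1 at -8.50 stand at the ends, and the interval of CD24 is the one that includes 0.

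The order of the markers by FPKM turned over between the groups. In Empty it ran from CD24 over THY1, CD44, SOX9, ICAM1 and ANPEP to EPCAM and PROM1, and the FPKM of neighbours overlapped only for SOX9 and ICAM1. In LINC00862 it ran from EPCAM over CD24, ICAM1, CD44, SOX9 and PROM1 to ANPEP and THY1, with an overlap only between SOX9 and PROM1. CD24 held 47.4% ± 0.649 of the summed FPKM of the 8 markers in Empty, THY1 21.9% ± 2.55, CD44 15.9% ± 0.914 and EPCAM 0.287% ± 0.0637 (SD, n = 3). In LINC00862, EPCAM held 65.4% ± 1.57, CD24 30.4% ± 1.11, CD44 1.21% ± 0.152 and THY1 0.0413% ± 0.00126 (SD, n = 3). CD24 was thus the one marker with a large share in both groups. The sum itself was 192 ± 13.4 FPKM in Empty and 244 ± 12.9 FPKM in LINC00862 (SD, n = 3 each).

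The list for EPCAM held binding partners, cleaving enzymes and inhibitors of matriptase, and most of these genes rose with EPCAM. Its binding partners CLDN7 and FHL2 went apart. Like the other lists, it was chosen with earlier results of these data known. Of 7 listed genes, all tested, 5 were up-regulated, 1 was down-regulated and 1 was not called, with a median log2 fold change of 5.94 against 0.11 over all tested genes. Of all tested genes 34.4% were up-regulated. CLDN7 (claudin-7), which binds EPCAM in the membrane, had an FPKM of 0.639, 0.694 and 0.522 in Empty and of 137, 132 and 80.0 in LINC00862 (log2 fold change 7.68, SE 0.26, adjusted p = 6.37e-08). Matriptase (ST14), a protease that cleaves EPCAM, changed by 7.40 on the log2 scale (adjusted p = 1.91e-07). Its inhibitors SPINT2 and SPINT1 changed by 6.84 (adjusted p = 3.35e-08) and 5.94 (adjusted p = 5.58e-08). The protease (169-fold) and both inhibitors (114-fold and 61.2-fold) therefore rose together. Of the enzymes that release the EPCAM intracellular domain, PSEN2 rose by 0.83 (adjusted p = 0.00275), while ADAM17 had a log2 fold change of -0.39 (SE 0.24, adjusted p = 0.186). FHL2, a partner of the released domain, fell by 1.18 on the log2 scale (adjusted p = 0.000217). Without Empty replicate 3, 2 of the 7 were called down-regulated.

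The partners of CD44 mostly fell. Of 13 listed genes 11 were tested, of which 8 were down-regulated, 1 was up-regulated and 2 were not called, with a median log2 fold change of -0.97. Over all tested genes, 29.8% were down-regulated and the median was 0.11. The linkers that tie CD44 to actin all fell, MSN (moesin) by 4.62, EZR (ezrin) by 3.15 and RDX (radixin) by 0.96 on the log2 scale. MSN had an FPKM of 87.5, 59.4 and 56.1 in Empty and of 2.79, 2.75 and 1.74 in LINC00862. Of the sheddases, MMP14 fell by 5.97 (adjusted p = 6.47e-08) and ADAM10 fell by 0.85 (adjusted p = 0.0106). The hyaluronan-binding proteoglycan VCAN (versican) fell by 6.42, and HMMR, another hyaluronan receptor, fell by 2.24. The hyaluronidases went apart. HYAL1 had an FPKM of 0.0639, 0.141 and 0.145 in Empty and of 15.3, 15.6 and 11.1 in LINC00862 (log2 fold change 6.98, SE 0.33, adjusted p = 3.05e-07), while HYAL2 fell by 0.97 (adjusted p = 0.000511). Of the hyaluronan synthases, HAS3 was not called (0.42, SE 0.24, adjusted p = 0.153) and HAS1 and HAS2, with at most 4 and 32 counts in a library, were not tested. SPP1 (osteopontin) was not called (0.03, SE 0.51, adjusted p = 0.967). Without Empty replicate 2, 2 genes of the list were called up-regulated.

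For THY1, ICAM1 and CD24, 7 of 8 listed binding partners were tested, of which 2 were down-regulated and 5 were not called, with a median log2 fold change of -0.22. Beside this, 29.8% of all tested genes were down-regulated, with a median of 0.11. ITGB3, the beta chain of a THY1-binding integrin, had an FPKM of 5.35, 2.62 and 2.76 in Empty and of 0.0521, 0.0866 and 0.108 in LINC00862 (log2 fold change -5.22, SE 0.38, adjusted p = 4.28e-06). SDC4 (syndecan-4), which also binds THY1, fell by 0.70 on the log2 scale (adjusted p = 0.00704). The alpha chain ITGAV, with -0.56 (SE 0.25, adjusted p = 0.0754), missed the threshold. The leukocyte integrin chains that bind ICAM1 stayed at low FPKM, at most 0.312 for ITGAL, 0.115 for ITGAM and 0.280 for ITGB2, and none of them was called. The CD24 ligands SIGLEC10, with at most 14 counts in a library, and SELP, with at most 5, were barely detected. The median of the list is the value of SIGLEC10 itself (SE 1.05), which did not reach the count cutoff in all libraries of either group.

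The closest relatives of the markers did not follow 1 direction. Of 16 listed relatives, 15 were in the table and 10 were tested, of which 3 were up-regulated, 3 down-regulated and 4 not called, with a median log2 fold change of 0.18. Among all tested genes 34.4% were up-regulated and 29.8% down-regulated, with a median of 0.11. PROM2, the paralog of PROM1, rose with it, by 3.45 (SE 0.23, adjusted p = 2.39e-06), and stayed the higher of the pair in each library, 5.69 to 29.1 times in Empty and 3.43 to 4.64 times in LINC00862. The Empty ratios rest on 14, 10 and 4 counts of PROM1, so their size and their difference from those in LINC00862 are uncertain. Among the aminopeptidases related to ANPEP, ERAP2 fell by 4.34 and NPEPPS by 0.90 on the log2 scale, while LNPEP (0.27, SE 0.22, adjusted p = 0.307), ERAP1 (0.46, SE 0.52, adjusted p = 0.463) and LVRN (-0.48, SE 0.96, adjusted p = 0.678) were not called. ENPEP was at 0 counts in each Empty library and at 14, 33 and 8 in LINC00862, and was not tested. Of the other ICAM genes, ICAM3 rose by 0.70 (adjusted p = 0.0305) and ICAM5 by 0.82 (adjusted p = 0.0409), and ICAM2 was not called (0.09, adjusted p = 0.879). The number of relatives called up-regulated rested on single libraries, being 5 without Empty replicate 1 and 1 without LINC00862 replicate 2, and on the scaling, being 1 with library size only. LYVE1, ICAM4, SOX8 and SOX10 were below the filter on low counts.

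Other markers of liver progenitors and cancer stem cells also went both ways, as did all tested genes, with 34.4% up-regulated and 29.8% down-regulated. Of 21 listed genes 18 were in the table and 16 were tested, of which 8 were up-regulated, 5 down-regulated and 3 not called. Since 6 of the 16 passed the filter through 1 group alone, these counts are partly set by the filter, and of the 10 that passed in both groups, 4 were up-regulated and 3 down-regulated. SOX2, CACNA2D1, NCAM1 and AFP, given next, are among those 6, so the filter fixed their direction. SOX2, a pluripotency factor, had counts of 0, 0 and 6 in Empty and of 984, 794 and 878 in LINC00862 (log2 fold change 8.79, SE 0.69, adjusted p = 6.43e-06). CACNA2D1, a calcium channel subunit, was at 0 counts in each Empty library and at 138, 147 and 128 in LINC00862, at least 49.1-fold higher against a floor of 3 counts per library. In the other direction, NCAM1 (CD56), an adhesion protein of hepatic progenitors, had counts of 6175, 3938 and 4024 in Empty and of 4, 17 and 32 in LINC00862 (log2 fold change -7.91, SE 0.54, adjusted p = 2.76e-06). AFP (alpha-fetoprotein) was low in Empty, at 14, 24 and 30 counts, and at 0 in each LINC00862 library, at least 7.14-fold lower. GPC3 (glypican-3) was at 0 counts in Empty and at 7, 6 and 4 in LINC00862, and was not tested. The marker set and the longer list thus both held genes that rose and genes that fell.

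Regulators known to act on these markers were read from 3 further lists. Beside their counts stand the 34.4% of all tested genes that were up-regulated and the 29.8% that were down-regulated. Of 11 epithelial and mesenchymal regulators, 5 were up-regulated, 4 down-regulated and 2 not called, and 4 of them passed the filter through 1 group alone. ESRP1, an epithelial splicing regulator of CD44, had an FPKM of 0.183, 0.193 and 0.0567 in Empty and of 51.3, 54.7 and 44.8 in LINC00862 (log2 fold change 8.55, SE 0.39, adjusted p = 2.91e-07). GRHL2, an epithelial factor, rose by 7.95 (SE 0.58, adjusted p = 4.12e-06), and OVOL2 was at 0 counts in Empty and at 47, 54 and 47 in LINC00862, at least 17.6-fold higher. TWIST1, a mesenchymal factor, had counts of 627, 732 and 806 in Empty and of 0, 8 and 0 in LINC00862 (log2 fold change -7.93, SE 0.78, adjusted p = 2.5e-05). Of the 7 that passed in both groups, 2 were up-regulated and 3 down-regulated, and GRHL2, OVOL2 and TWIST1 are not among them, so the filter fixed their direction. ESRP2, with 0.29 (SE 0.14, adjusted p = 0.105), and SNAI1, with -0.30 (SE 0.44, adjusted p = 0.571), both named after their values were seen, were the 2 not called. Of 8 Notch, YAP and biliary regulators of SOX9, 4 were down-regulated, 3 up-regulated and 1 not called. Of the 6 that passed the filter in both groups, 4 were down-regulated and 1 up-regulated, and the other 2, which passed through LINC00862 alone, could be called only as up-regulated. NOTCH2 fell by 2.09 on the log2 scale (adjusted p = 0.000302) as SOX9 did, while the Notch target HES1 rose by 1.47 (adjusted p = 4.78e-05). The biliary factor ONECUT1 was at 0 counts in Empty and at 19, 18 and 24 in LINC00862, at least 7.34-fold higher.

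Of 14 NF-kappaB subunits and targets, all tested, 5 were up-regulated, 3 down-regulated and 6 not called, with a median log2 fold change of 0.17. The share called over all tested genes was 64.2% and their median 0.11. The cytokine targets moved apart. CCL20 rose by 5.55 (adjusted p = 4.35e-06), CXCL8 by 2.74 (adjusted p = 1.1e-05) and the apoptosis inhibitor BIRC3 by 2.00 on the log2 scale (adjusted p = 2.4e-05), whereas IL6 fell by 3.80 (adjusted p = 3.56e-05) as ICAM1 fell. The number called down-regulated was 5 without Empty replicate 3.

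Genes next to the markers on their chromosomes were read by the same fit. For the 7 called markers, 14 nearest tested neighbours were counted, of which 5 were called in the direction of the marker, 5 in the opposite direction and 4 were not called. Beside this stands the called share of 64.2% among all tested genes. SLC1A2, FGFBP1, EPCAM-DT and KCNJ2, a neighbour of SOX9, passed the filter only through the group where they were higher, which fixed their direction. SLC1A2, 18803 bases from CD44, had counts of 23, 14 and 8 in Empty and of 2610, 2478 and 1970 in LINC00862 (log2 fold change 7.38, adjusted p = 1.46e-07), opposite to CD44. FGFBP1, 24336 bases from PROM1, had counts of 104, 137 and 105 in Empty and 0 in each LINC00862 library, opposite to PROM1. EPCAM-DT, a transcript that starts 84 bases from EPCAM on the other strand, went with it, from 0, 0 and 8 counts to 47, 24 and 23 (log2 fold change 3.54, adjusted p = 0.0200). CD44-AS1, which overlaps CD44 on the other strand, had counts of 36, 12 and 4 in Empty and 0 in each LINC00862 library. The library kit kept the strand, but the strand setting of the authors' counting is not given in the sources used here, so reads of overlapping genes may not be told apart.

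For each marker, the tested genes of similar mean level whose depth-scaled log2 counts ran most closely with it over the 6 libraries were named as a description. The libraries form 2 groups, so such correlations rest mainly on the group difference. The closest were TSPAN13 for EPCAM (r = 0.9998), MAT1A for PROM1 (r = 0.9997), SLC43A3 for THY1 (r = 0.9996), PYGL for CD44 (r = 0.9994), EYA2 for ANPEP (r = 0.9995), TATDN2 for ICAM1 (r = 0.9964) and RGS12 for SOX9 (r = 0.9999). For CD24 the closest was RTN3, with r = 0.915. High values were common, since 7.74% of the genes compared with THY1 and 4.24% of those compared with EPCAM had r above 0.99, whereas none of the 329 genes compared with CD24 did.

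Markers of 4 cell types were read beside the set and beside all tested genes, of which 34.4% were up-regulated and 29.8% down-regulated. Of 10 hepatocyte markers 9 were tested, of which 7 were up-regulated and 2 down-regulated, and 5 of the 9 passed the filter through 1 group alone, which fixed their direction. Of the 4 that passed in both groups, 3 were up-regulated and 1 down-regulated. The median log2 fold change was 7.29, or 6.26 with TTR, which was at 0 counts in Empty and at 71, 93 and 50 in LINC00862, at its lower bound. CPS1, the first enzyme of the urea cycle, had an FPKM of 1.49, 1.34 and 1.07 in Empty and of 306, 338 and 270 in LINC00862, and FGB (fibrinogen beta) rose from 1.88, 1.69 and 1.68 to 598, 529 and 525. CPS1 and FGB rose in the libraries in which EPCAM rose, while the 2 down-regulated hepatocyte markers, whose values are not given here, fell in them. Of 9 fibroblast and stromal markers, 2 were up-regulated, 3 down-regulated and 4 not called, and their summed FPKM was 9.34 to 10.4 in Empty and 12.5 to 16.1 in LINC00862. PDGFRB, a mesenchymal receptor, fell by 5.86 on the log2 scale (adjusted p = 1.4e-07) as THY1 fell, while COL1A1 rose by 2.32 (adjusted p = 1.9e-05). Of 5 tested endothelial markers CDH5 was the one called, with a rise of 3.63 (adjusted p = 4.1e-07), and the summed FPKM of the list was 1.23 to 1.79 in Empty and 4.47 to 5.93 in LINC00862. Of 7 leukocyte markers 2, CD68 and CD14, were up-regulated, and the summed FPKM was 4.02 to 4.25 in Empty and 9.92 to 15.8 in LINC00862. The pan-leukocyte gene PTPRC, named after its values were seen, had an FPKM of at most 0.361 in any library. The part of these genes in the marker values was not tested.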

How the data were processed

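RNA of 3 Empty and 3 LINC00862 libraries was sequenced after poly(A) selection, with dUTP strand marking and molecular identifiers in the adapters. For each gene the authors deposited the raw read count of every library and its FPKM, which is scaled by transcript length and mapped fragments. The submitters' processing notes name cutadapt 1.9, HISAT2 2.0.4, UMI-tools, StringTie 1.3.4d, DESeq2, edgeR and hg38, with no role. Whether identifiers were collapsed is not given in the sources used here. Total counts lay between 58241123 and 68229070, and replicates differed by more than sampling noise.

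Counts were tested with edgeR 4.0.16 in R 4.3.3 (filterByExpr, TMM, quasi-likelihood test, Benjamini-Hochberg adjustment over 20741 genes, false discovery rate 0.05). SE and 95% intervals were derived from that test. For the markers, FPKM was also permuted exactly over the libraries (two-sided). Percentiles of FPKM are among the tested genes of the group. Folds against a group at 0 counts use a floor of 3 counts per library, which covers counting error only. Lists are described by counts and medians, with no set test. The alternatives were DESeq2 1.42.0, limma-trend (limma 3.58.1) on log2 FPKM with a pseudocount of 1 or 0.1, upper quartile scaling, library size only, every gene with at least 1 count, a replicate block, a null of 2-fold, a false discovery rate of 0.01 and leaving out each library. The scripts were tested on simulated data of 18148 genes with 200 changed genes, of which 22% of the 2-fold and 96% of the 4-fold changes were called. The simulation gave every gene the same dispersion and changed few genes, whereas 64.2% of the tested genes were called in the data. Its shares are therefore not the sensitivity of the fit to these data. Not being called does not show that a gene was unchanged.

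The members and the 12 lists were chosen with earlier results of these data known. Named genes are the markers, LINC00862, the genes of the partner and relative lists, and in the other lists up to 4 called genes with the largest absolute log2 fold change plus genes at 0 to 3 counts in a whole group. The nearest tested gene on each side of a marker and, per marker, the 2 best correlated genes that carry a GO term and whose mean depth-scaled log2 count lies within 0.5 of its own were also eligible, and the neighbours and correlated genes are given in part. Gene coordinates are those of the deposited table, and 1 of the 8 markers, EPCAM, has the same coordinates in GENCODE 29. Other assays of the study were not analysed here. Some genes that the rule covers are not reported here.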

Additional observations from a re-analysis of the deposited data

How the results depend on the processing

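Of 540 values recomputed under 15 alternatives, 518 kept their direction and their side of the threshold, or their count within 1.5 times. EPCAM, PROM1, THY1, CD44, ANPEP and SOX9 kept both under all 15. CD24, not called by any of them, had a log2 fold change of 0.093 with upper quartile scaling, and ICAM1 (-0.82) lost its call (adjusted p = 0.944) against a null of a 2-fold change. That null, which asks for more than a difference, also left 8010 genes differentially expressed, 5 partners of CD44 down-regulated, 0 partners of EPCAM down-regulated by edgeR (1 at an unadjusted p below 0.05, and 1 by DESeq2 without that null) and 1 partner of THY1, ICAM1 and CD24 down-regulated, 1 relative up-regulated, 2 other stem cell markers down-regulated, 3 NF-kappaB genes up-regulated, 1 Notch, YAP and biliary gene down-regulated and 1 fibroblast gene in each direction. Upper quartile scaling gave 2 partners of CD44 up-regulated. Library size only gave 1 relative up-regulated and 5 NF-kappaB genes down-regulated, limma-trend on log2(FPKM + 0.1) gave 5 NF-kappaB genes down-regulated, and a false discovery rate of 0.01 gave 1 relative up-regulated. The cause of these shifts was not tested.

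Leaving out 1 library gave 12063 to 14285 differentially expressed genes, always 2 markers up-regulated and 5 down-regulated, 1 to 2 partners of CD44 up-regulated, 1 to 2 partners of EPCAM down-regulated, 1 to 5 relatives up-regulated and 3 to 5 NF-kappaB genes down-regulated. Replicate numbers are shared by the groups, but same-numbered libraries did not deviate together (r = -0.049, -0.025 and -0.0074 across genes). With the replicate number as a block, 12098 genes were differentially expressed, with 2 markers up-regulated and 5 down-regulated.

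Scaling set where the middle of the tested genes lay. Their median was 0.11 under TMM, when 53.6% of calls were up-regulated, 0.16 under DESeq2 (55.1%), 0.32 under the upper quartile (60.4%) and -0.05 under library size alone (48.5%), all on the log2 scale. Depth limits PROM1 in Empty, at 4 to 14 counts, and the genes at 0 counts in a group. With 3 libraries in each group, Dixon's rule for outlying samples was not applied.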
